A study of Mus musculus with 2 samples.

Results

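The 10 genes described here encode proteins that release arachidonic acid or help turn it into prostaglandins and leukotrienes, and were read in mouse macrophages. They were chosen by gene name for their place in the pathway, with earlier results of these data known. Their probes were found through the RefSeq accession that the array design gives for each non-control probe. All 10 were on the array, with 11 probes and 20 spots per array, out of 20660 genes with a named probe. The samples were bone marrow-derived macrophages, which grow from femoral marrow under M-CSF, a growth factor, from calpain-6-deficient male mice (Capn6-Ko) and from calpain-6 wild-type male mice (Capn6-Wt). Both cultures also received the inflammatory cytokine TNF-α, at 10 ng/mL beside 50 ng/mL of M-CSF, so neither is an untreated state. One field of the labels places the harvest at day 3 of culture and another at day 4. RNA of pooled cells was hybridised to 1 array per genotype. The series text gives 4 mice in all or per group without saying which, and the sources used here state neither the deletion's construct nor the age of the mice. There are therefore no replicates, no p-value is given, and each difference describes these 2 RNA pools.

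Cytosolic phospholipase A2 (Pla2g4a) releases arachidonic acid from membrane phospholipids. The cyclooxygenases, constitutive Ptgs1 and inducible Ptgs2, turn it into prostaglandin H, from which Ptges makes prostaglandin E and Hpgds and Ptgds make prostaglandin D. In the other branch Alox5, helped by its membrane partner Alox5ap, makes leukotriene A, which Lta4h hydrolyses to leukotriene B and Ltc4s conjugates with glutathione to leukotriene C. Macrophages use both branches, and Ptgs2 is the member best known for induction by inflammatory stimuli such as TNF-α.

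Of the 10 genes, 9 were well above background on both arrays, which is called measured below, and 1 of these, Ptgs2, was lower in Capn6-Ko by over 20%. Its signal averaged 135 in Capn6-Ko and 193 in Capn6-Wt over 10 spots each, a log2 difference of -0.50 ± 0.043, or 1.41-fold. The other 8 measured members lay between -0.11 and 0.19 on the log2 scale. A log2 difference here is Capn6-Ko minus Capn6-Wt, each signal first divided by the 75th percentile of its array, and the ± is the SD expected from the spread between spots of 1 probe. That SD leaves out variation from animal to animal, from culture to culture and from RNA preparation. Genes were counted as past the small size when Capn6-Ko was at least 25% higher or at least 20% lower than Capn6-Wt, the same distance on the log scale. Of all 12875 measured genes, 5.52% were lower and 2.64% higher by that size. No member reached 1.5-fold in either direction, which 1.58% of all genes did, or 2-fold, which 0.0932% did. A count of 1 in 9 is thus too near the background to be a result about the gene set, and what follows treats the members one by one.

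The promoters of the 2 cyclooxygenase genes are shown because the genes catalyse the same step and, of the pair, Ptgs2 alone passed the small size. Each line gives the 250 bases before the annotated start, 5′ to 3′ on the gene's strand, from RefSeq on build GRCm38.p6. Ptgs2 lies at chr1:150099781-150100030 on the forward strand and Ptgs1 at chr2:36230176-36230425 on the forward strand. Capitals mark matches to any of the motifs named after the sequences.
Ptgs2: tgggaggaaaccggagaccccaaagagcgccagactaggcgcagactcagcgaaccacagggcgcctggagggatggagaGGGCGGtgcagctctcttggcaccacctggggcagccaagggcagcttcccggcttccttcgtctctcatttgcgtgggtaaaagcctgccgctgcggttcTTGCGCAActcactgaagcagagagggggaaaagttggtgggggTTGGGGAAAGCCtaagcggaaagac
Ptgs1: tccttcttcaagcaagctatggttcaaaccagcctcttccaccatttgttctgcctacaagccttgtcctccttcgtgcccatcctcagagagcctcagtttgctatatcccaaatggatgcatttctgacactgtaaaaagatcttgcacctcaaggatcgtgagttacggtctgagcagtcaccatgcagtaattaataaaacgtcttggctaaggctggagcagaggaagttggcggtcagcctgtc
The motifs were searched on both strands. The Ptgs2 window held a GC box (GGGCGG, present in 32.7% of the 32851 promoter windows of the table), 170 to 165 bases before the start. It held 2 matches to a C/EBP motif (TTNCNNAA, 36.8% of windows), at 69 to 62 and at 25 to 18 bases before the start. The second of these overlaps a match to an NF-kB motif (GGGNNNNNCC, 45.8% of windows) at 23 to 14 bases. The Ptgs1 window held none of these letters. Neither window held a TATA box (TATAAA, 12.4% of windows), a cAMP response half-site (CGTCA, 17.8%) or an E-box (CACGTG, 6.02%). Both windows also lacked an AP-1 motif (TGANTCA, 6.75%) and a CCAAT box (CCAAT, 33.9%). Bases farther upstream or past the annotated start were not searched, so a site there would be missed. The GC content was 61.6% for Ptgs2 and 48.0% for Ptgs1, beside a median of 52.4% over all windows. The same motifs occur in other members. Of 10 windows from 9 members, 5 held the NF-kB motif, 5 the C/EBP motif and 3 the GC box. The Ptges window held all these kinds at a difference of -0.11. The Alox5 window held a GC box and NF-kB matches at a difference of 0.19. These are matches of letters in short windows, no binding was measured, and their part in any difference was not tested.

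Ptgs2, the inducible cyclooxygenase, was the member with the most spots, since its single probe was printed 10 times on each array. The spots ran from 121 to 152 in Capn6-Ko, with a median of 134, and from 181 to 209 in Capn6-Wt, with a median of 192. The spots of the 2 arrays did not overlap, so the Capn6-Ko signal was necessarily the lower one at each of the 10 printed positions. The position with the smallest gap had a log2 difference of -0.33 and the one with the largest gap -0.69. The SD between spots was 9.22 in Capn6-Ko and 8.84 in Capn6-Wt, and from these spots alone the error of the difference was 0.037. How many other probes with several spots were likewise separated between the arrays was not counted. Spots on an array share 1 RNA pool, so they show how firmly the probe was read and not how cultures vary.

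**Figure D1:**
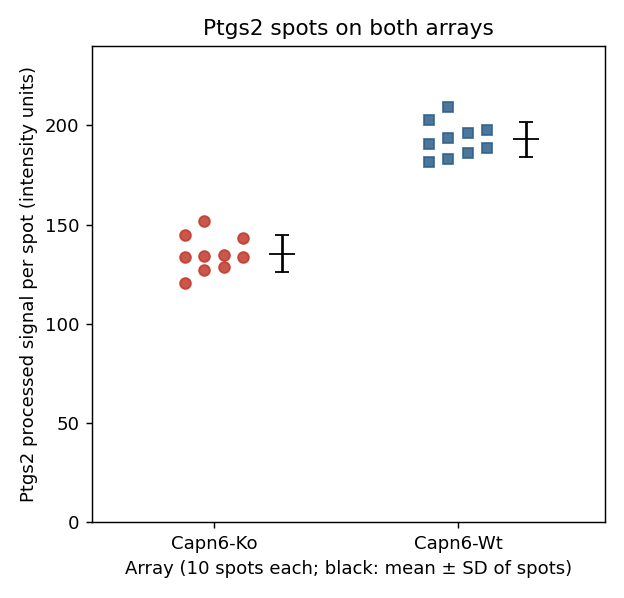
Processed signal of each of the 10 Ptgs2 spots per array (vertical axis, intensity units, from 0), with the Capn6-Ko array at the left and the Capn6-Wt array at the right. Black bars give mean ± SD over spots. All Capn6-Ko spots lie at or below 152 and all Capn6-Wt spots at or above 181.

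The Ptgs2 probe was bright enough to be read but dimmer than most measured genes. Its raw median pixel value ran from 161 to 216 over the Capn6-Ko spots and from 212 to 281 over the Capn6-Wt spots. The local background was 26 to 32, and the raw values overlapped slightly. The clear separation of the spots is that of the processed signal. There the Capn6-Ko spot with the highest raw value had 143, and the Capn6-Wt spot with the lowest raw value had 186. Among all measured genes, 299 of 12875 (2.32%) had a difference as low or lower. A narrower comparison is with the 263 measured probes that had at least 5 usable spots per array, whose median difference was -0.0078 with an SD of 0.17. Of these, 19 were past the small size on the lower side and 4 on the higher side. Ptgs2 was among the 4 lowest, with probes of Ddah1 (-0.92), Acta2 (-0.58) and Parm1 (-0.53), which were named after their values were seen.

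Pla2g4a, which releases the arachidonate that both branches use, had a signal of 1426 in Capn6-Ko and 1423 in Capn6-Wt. Its log2 difference of 0.021 ± 0.078 was within the spot error. In the RefSeq order of genes on chromosome 1, Pla2g4a and Ptgs2 are neighbouring protein-coding genes with only a pseudogene and the noncoding RNA Ptgs2os between them. Of this adjacent pair, the difference of Ptgs2 exceeded the spot error and that of Pla2g4a did not.

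Ptgs1, the constitutive cyclooxygenase, was slightly brighter in the Capn6-Ko pool, with 552 in Capn6-Ko and 517 in Capn6-Wt. The difference of 0.11 ± 0.095 was about the size of its spot error. The difference of Ptgs2 minus that of Ptgs1 was -0.61 on the log2 scale, so the signal ratio of Ptgs2 to Ptgs1 in Capn6-Ko was 0.657 of that in Capn6-Wt. This sets changes side by side and says nothing of which enzyme is the more abundant, because probes differ in how brightly they hybridise.

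The terminal prostaglandin synthases that could be measured were near equal on both arrays. Ptges, the microsomal prostaglandin E synthase that is often induced together with Ptgs2, has 2 probes. The bright one had 14884 in Capn6-Ko and 15369 in Capn6-Wt, a difference of -0.028, and the dim one 67.5 in Capn6-Ko and 77.6 in Capn6-Wt, a difference of -0.18. Their mean was -0.11 ± 0.098, which rests mostly on the dim probe. Hpgds, the hematopoietic prostaglandin D synthase, had 1638 in Capn6-Ko and 1689 in Capn6-Wt, a difference of -0.025 ± 0.080.

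Ptgds, the lipocalin-type prostaglandin D synthase known mainly from brain and meninges, was at the detection limit. Its signal was 17.4 in Capn6-Ko, where the spot passed as well above background, and 14.7 in Capn6-Wt, where it did not. On that array the dimmest probe called well above background had 16.6, and after scaling the Capn6-Ko signal of Ptgds was 1.06-fold that signal. This is no firm bound, because some brighter probes did not pass in Capn6-Wt, such as that of Ptger1 at 18.7. The scanner software's own error was 0.48 on the Ptgds log2 difference of 0.26, so its direction is not settled. Ptgds is left out of all medians and counts of measured members.

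**Figure D2:**
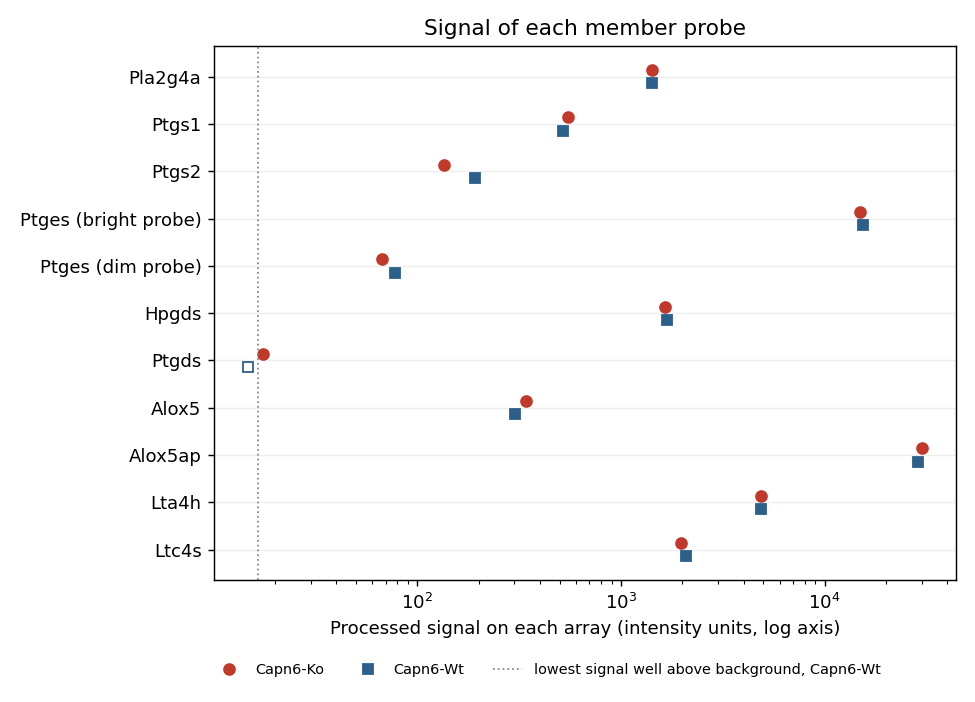
Processed signal (horizontal log axis, intensity units) of each of the 11 member probes on the Capn6-Ko array (red circles) and the Capn6-Wt array (blue squares), the Ptgs2 value being the mean over its spots on the log scale. Open symbols were not well above background, and the dotted line is the lowest signal well above background in Capn6-Wt, 16.6. Ptgs2 has the widest gap among the filled pairs, and the open Ptgds square lies left of the line.

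In the leukotriene branch Alox5, which oxygenates arachidonate at the first step, had the largest difference, with 341 in Capn6-Ko and 302 in Capn6-Wt. Its value of 0.19 ± 0.11 was below the small size, and 7.55% of all measured genes were as high or higher. Alox5ap, the membrane protein that presents arachidonate to Alox5, was very bright on both arrays, with 29966 in Capn6-Ko and 28735 in Capn6-Wt. Its difference was 0.079 ± 0.083. Both partners of the first step were on the higher side in Capn6-Ko, Alox5 by more than its spot error and Alox5ap by less. Each value rests on 1 spot per array. Each was also below the scanner software's own error, 0.205 for Alox5 and 0.204 for Alox5ap.

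Lta4h, the hydrolase that makes the neutrophil attractant leukotriene B, had 4889 in Capn6-Ko and 4866 in Capn6-Wt, a difference of 0.025 ± 0.073. Ltc4s, which makes leukotriene C, the parent of the cysteinyl leukotrienes, had 1973 in Capn6-Ko and 2090 in Capn6-Wt, a difference of -0.065 ± 0.082. Neither enzyme of the second step differed between the arrays by more than its spot error.

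The branches were set side by side by their counts and medians. Of 4 measured cyclooxygenase-branch genes 3 were lower in Capn6-Ko, with a median difference of -0.065 and a range from -0.50 to 0.11. Of 4 measured lipoxygenase-branch genes 1 was lower, with a median of 0.052 and a range from -0.065 to 0.19. Without Ptgs2 the cyclooxygenase median was -0.025 over 3 genes. Over all measured genes the median was -0.0056, the SD 0.18, and 52.2% of genes were lower. The cyclooxygenase median minus the lipoxygenase median was -0.12, which was not tested. Both medians shifted with the processing, though by less than the median spot SD of their members, 0.088 for the cyclooxygenase and 0.082 for the lipoxygenase branch. With only probes above the median level they were -0.0255 for the cyclooxygenase branch and 0.0247 for the lipoxygenase branch. That setting drops Ptgs2, Alox5 and the dim Ptges probe, so the branches there hold fewer members. After normexp background correction and quantile normalization they were -0.0326 for the cyclooxygenase and 0.0963 for the lipoxygenase branch. The cyclooxygenase median was also nearer 0 with the brightest probe per gene (-0.0268) and with no filter on dim probes (-0.0255), which adds Ptgds.

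The single-spot members should be read with a wider error as well. The scanner software attaches its own error to each signal, which for the measured members came to 0.20 to 0.23 on the log2 difference of 1 spot per array. The difference of every measured member other than Ptgs2 was below that error of its own spots.

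**Figure D3:**
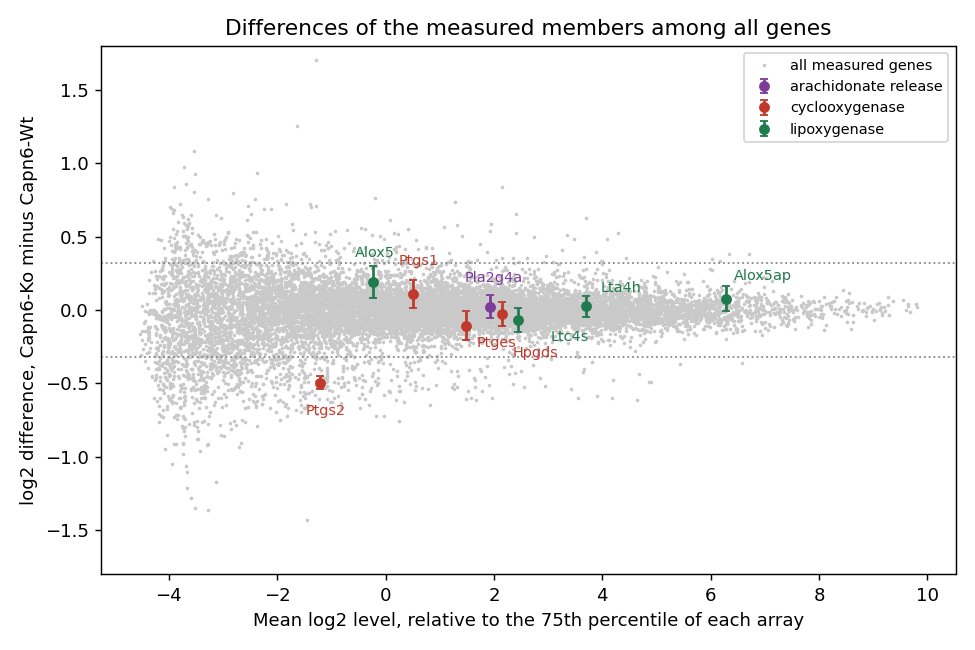
Log2 difference, Capn6-Ko minus Capn6-Wt (vertical axis), against mean log2 level relative to the 75th percentile of each array (horizontal axis) for all 12875 measured genes (grey) and the 9 measured members (coloured by role, bars ± spot SD). Dotted lines mark 25% higher and 20% lower. Ptgs2 at -0.50 lies beyond the lower line, and the other 8 members lie between the lines.

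Around the members, 7 lists of other genes of the pathway held 68 genes, of which 46 were measured, 20 higher and 26 lower in Capn6-Ko, with a median of -0.020. Of these 46, 2 were at least 25% higher and 4 at least 20% lower, beside 2.64% and 5.52% of all measured genes. The lists were written with earlier results of these data known.

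Among receptors for the products, Ptger4 and Cysltr1 passed the small size on the higher side and Cysltr2 on the lower side. Ptger4, a prostaglandin E receptor that raises cyclic AMP in macrophages, had 196 in Capn6-Ko and 150 in Capn6-Wt, a difference of 0.41 ± 0.13 from 1 spot per array. Cysltr1, the main receptor for leukotriene D, had 2 probes that moved alike, one with 514 in Capn6-Ko and 386 in Capn6-Wt and the other with 124 in Capn6-Ko and 94.3 in Capn6-Wt. Its difference was 0.43 ± 0.092. Cysltr2, the second cysteinyl leukotriene receptor, was dim, with 25.7 in Capn6-Ko and 35.4 in Capn6-Wt, a difference of -0.44 ± 0.31. Ptgir, the prostacyclin receptor, had 3057 in Capn6-Ko and 3492 in Capn6-Wt, a difference of -0.17. Over the 4 measured of 9 prostanoid receptors 3 were higher and 1 lower, with a median of 0.15, and over the 3 measured of 5 leukotriene receptors 1 was higher and 2 were lower, with a median of -0.18.

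The other prostanoid synthases gave 3 higher and 4 lower genes of 7, with a median of -0.0010. Ptgis, the prostacyclin synthase of vessel wall and smooth muscle, was the 1 gene past the small size, at 22.8 in Capn6-Ko and 35.7 in Capn6-Wt, a difference of -0.63 ± 0.31 on a dim single spot. Prxl2b, a prostamide and prostaglandin F synthase, was at -0.017. Of 5 measured other lipoxygenases and glutathione transferases that can make leukotriene C, 2 were higher and 3 lower, with a median of -0.060 and none past that size. Mgst3 was at 0.13. The 12/15-lipoxygenase gene Alox15, known from resident peritoneal macrophages, was not well above background on either array.

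Other phospholipases A2 gave 2 higher and 6 lower genes of 8 measured, with a median of -0.068 and none past that size. Pla2g7, which degrades platelet-activating factor, was at -0.038. Pla2g3, a secreted phospholipase, was well above background in Capn6-Wt by 1 of its probes, with 4.10 in Capn6-Ko and 46.6 in Capn6-Wt. After scaling, that Capn6-Wt signal was 3.28-fold the dimmest one called well above background in Capn6-Ko, a rough bound from a single spot. Its second probe was not well above background on either array, with 11.9 in Capn6-Ko and 12.2 in Capn6-Wt. The genes that return arachidonate to phospholipids gave 4 higher and 3 lower of 7, with a median of 0.0022. Acsl4, the ligase that prefers arachidonate, was at 0.0022. Mboat2, of the same list, was well above background in Capn6-Wt only, with 17.9 in Capn6-Ko and 26.2 in Capn6-Wt. That is 1.44-fold lower in Capn6-Ko, a rough value so near the detection limit.

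Of 12 measured genes of export and breakdown 5 were higher and 7 lower, with a median of -0.013. Dpep1, a dipeptidase that converts leukotriene D to leukotriene E, had 36.7 in Capn6-Ko and 58.8 in Capn6-Wt, a difference of -0.66 ± 0.25. Ephx2, the soluble hydrolase of arachidonate epoxides, had 28.3 in Capn6-Ko and 36.7 in Capn6-Wt, a difference of -0.36 ± 0.30. Both are dim single spots. Cyp4f18, which inactivates leukotriene B, was at -0.0023.

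**Figure D4:**
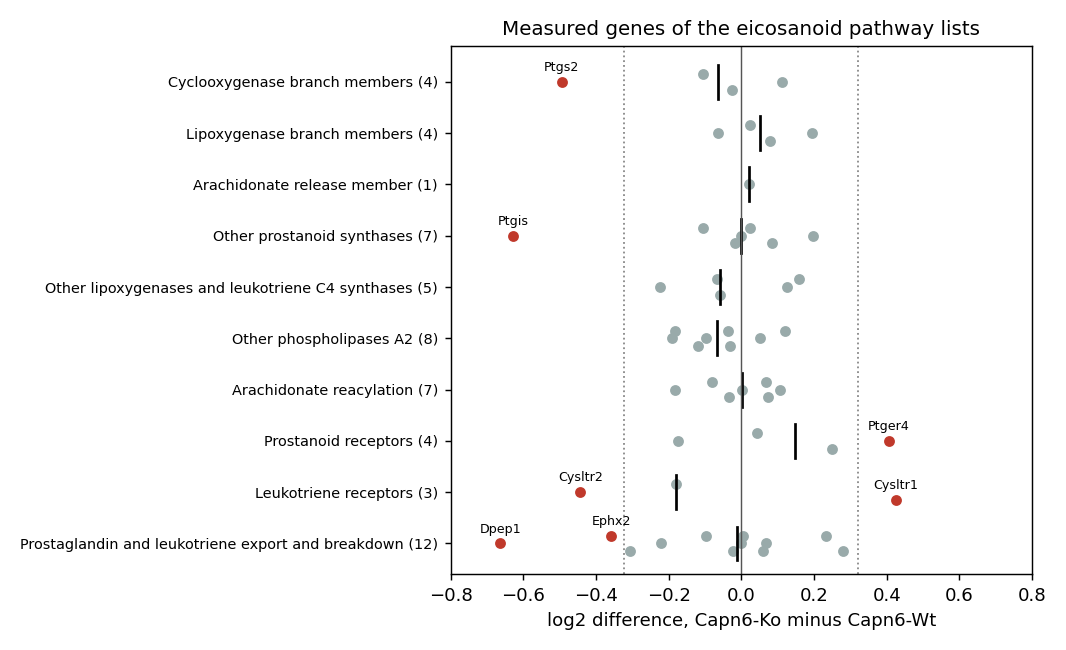
Log2 difference, Capn6-Ko minus Capn6-Wt (horizontal axis), of each measured gene in the member groups and the other pathway lists, with the number measured in parentheses. Black bars are list medians, dotted lines mark 25% higher and 20% lower, and red points past it are named. Ptgs2, Ptgis, Cysltr2, Dpep1 and Ephx2 lie on the lower side, and Ptger4 and Cysltr1 on the higher side.

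Markers of other cell types moved between the arrays, and their part in the Ptgs2 difference was not tested. Fibroblasts can also express Ptgs2. Of 13 measured stromal fibroblast markers of 14, 12 were lower in Capn6-Ko and 9 passed the small size. Their median difference was -0.49, and their summed signal was 28715 in Capn6-Ko and 42094 in Capn6-Wt. Tagln, the one with the largest difference, was at -0.61, while Lum was not well above background on either array. Of 11 measured macrophage markers of 12, 8 were higher and 3 lower, with a median of 0.20. At the small size 4 were higher and 0 lower. Their summed signal was 228520 in Capn6-Ko and 223530 in Capn6-Wt, mostly from Lyz2, with 164590 in Capn6-Ko and 167570 in Capn6-Wt. Cx3cr1, at 0.59, had the largest difference of these, and Lyz2 was at -0.0078. Fewer cells of a type and less RNA per cell cannot be told apart in such pools.

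Mast cells and eosinophils are rich in Hpgds, Ltc4s and Alox5. Of 10 mast cell and basophil markers on the array 8 were not well above background on either, among them Cpa3, Ms4a2 and Fcer1a. The 2 measured, Tpsb2 at -0.080 and Kit at -0.050, had a summed signal of 499 in Capn6-Ko and 533 in Capn6-Wt. Most of that sum was Tpsb2, with 446 in Capn6-Ko and 477 in Capn6-Wt. Eosinophil markers gave 4 higher and 1 lower of 5, with a median of 0.21, summed signals of 1943 in Capn6-Ko and 1862 in Capn6-Wt, the largest difference for Prg2 (0.53) and a value of 0.0083 for Ear1, while Epx was not well above background. Platelets use Ptgs1. Their 9 markers gave 7 higher and 2 lower, with a median of 0.26, summed signals of 22095 in Capn6-Ko and 21410 in Capn6-Wt, the largest difference for Gp6 (0.47) and a value of 0.13 for Pf4. Neutrophils use Alox5 and Alox5ap. Of their 10 measured markers 3 were higher and 7 lower, with a median of -0.033. Summed signals were 65900 in Capn6-Ko and 70632 in Capn6-Wt, mostly from Csf3r, with 56502 in Capn6-Ko and 61149 in Capn6-Wt. The largest difference was that of Ltf (0.33), and Csf3r was at -0.096. Lymphocyte markers gave 2 higher and 2 lower of 4, with a median of -0.012, summed signals of 3087 in Capn6-Ko and 3012 in Capn6-Wt, the largest difference for Ms4a1 (-0.48) and a value of 0.083 for Nkg7. The part of these cells in the values of Ptgs1, Hpgds, Ltc4s, Alox5 and Alox5ap was not tested.

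**Figure D5:**
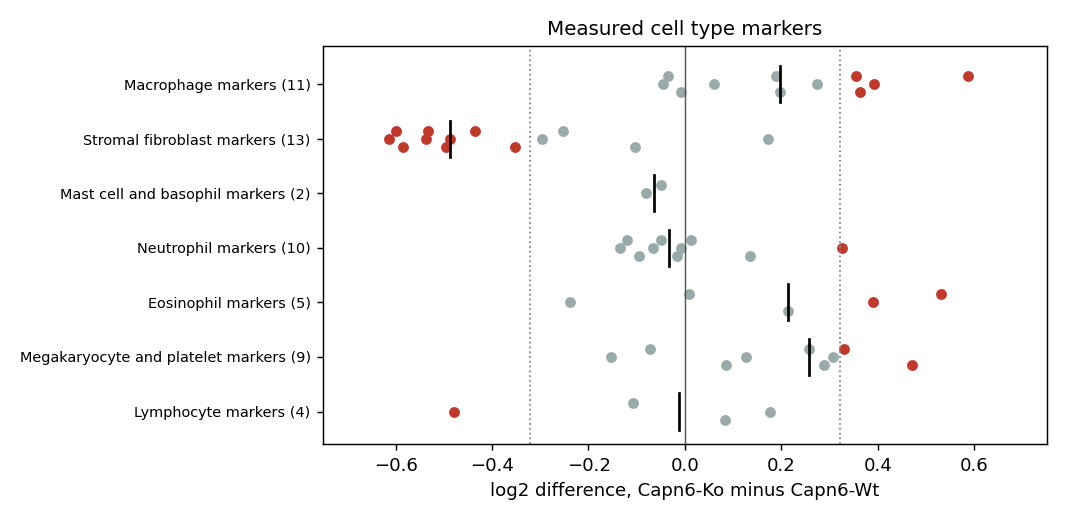
Log2 difference, Capn6-Ko minus Capn6-Wt (horizontal axis), of each measured cell type marker, with the number measured in parentheses. Black bars are list medians and red points lie at or past the dotted lines for 25% higher and 20% lower. The stromal fibroblast markers centre on -0.49 and the macrophage markers on 0.20.

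The targeted gene could not check the labels, because the single Capn6 probe was not well above background on either array, at 8.65 in Capn6-Ko and 3.93 in Capn6-Wt. Of 59305 non-control spots, 52.8% were well above background in Capn6-Ko and 51.7% in Capn6-Wt, and no spot was saturated.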

How the data were processed

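The deposited scanner files hold the linear intensity of each spot from 1-colour scans that the authors extracted with version 10.10.1.1 of Agilent Feature Extraction, per the file headers, on an array design annotated on mm9. The processed signal is background-subtracted within each array and not scaled between arrays. The deposited value table is the same intensity times 1 constant per array, 2.42 for Capn6-Ko and 2.39 for Capn6-Wt, as set against the scanner values. Its column medians were 50.7 for Capn6-Ko and 53.0 for Capn6-Wt, and it has no centring and no direction.

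Control spots and spots flagged as outliers on either array were left out. Each log2 signal was expressed relative to the array's 75th percentile (372 in Capn6-Ko, 377 in Capn6-Wt), averaged over spots, and then over the probes of a gene that were well above background in most spots on both arrays. Of 55681 probes, 28685 carried a RefSeq accession and 27235 matched a symbol in a RefSeq table of GRCm38.p6, used for names and gene order. Promoters were found for 9 of the 10 members. The spot SD comes from 263 probes with at least 5 spots, in 8 bins of level. With 1 array per group no test was run, genes were counted at 25% higher or 20% lower (the small size), at 1.5-fold and at 2-fold, and the number of arrays limits the precision.

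The members and lists were chosen with earlier results of these data known. Named are all members, other pathway genes past the small size or well above background on 1 array only, and the gene of each list with the highest mean log2 level over its probes, which ranks averages and not probes, with the largest difference for marker lists. Other names were chosen after their values were seen. Python 3.11.15, numpy 2.4.6, pandas 2.3.3, R 4.3.3 and limma 3.58.1 were used, and the summary steps were tested on simulated data. The alternatives tried were quantile normalization, median centring, the value table, other filters on dim probes, the brightest probe per gene, and outliers kept. The last was normexp on the median signal, followed by quantile normalization.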

Additional observations from a re-analysis of the deposited data

How the results depend on the processing

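The 8 alternatives gave 198 values beside those reported, of which 177 moved by less than the spot SD or, for counts, by no more than 1.5 times, and 21 moved by more. A change of sign was counted only for values past the small size, which here was that of Ptgs2 alone. That sign did not change. Ptgs2 was below 0 in each of the 7 alternatives that kept it, from -0.495 to -0.337. Most of these could hardly change it, because it has 1 probe with no flagged or dim spot. The value table is also the same signal times a constant. Only quantile normalization, at -0.486, and normexp gave values other than -0.495. The value of -0.337 came from normexp on the median signal followed by quantile normalization, so background, signal column and scaling changed together. This setting was chosen after seeing the data, because the planned normexp on the mean signal could not be run on columns these files hold. It also adds an offset of 50 that shrinks differences of dim probes. Ptgs2 stayed past the small size there. Lta4h was at 0.113 under normexp. Restricting to probes above the median level drops Ptgs2, so that 0 members were at least 20% lower. Over the alternatives Alox5 ran from 0.103 to 0.197, Ptgs1 from 0.11 to 0.136, Ptges from -0.105 to -0.0281, and Hpgds, whose sign is not settled, from -0.0271 to 0.0227. The counts over all genes depend on the filter on dim probes. With no filter 1667 genes were at least 25% higher and 2589 at least 20% lower, 837 and 1402 at 1.5-fold, and 312 and 583 at 2-fold. With only probes above the median level the counts were 73 and 109, 7 and 14, and 0 and 0, and with normexp 79 and 189, 8 and 8, and 1 and 0. The reported counts were 340 and 711, 43 and 161, and 3 and 9. No paired analysis was possible because each group is 1 array. The pools share no replicate, so spread between mice or cultures is unknown, and probes with signals near the lowest well above background, 14.03 in Capn6-Ko and 16.6 in Capn6-Wt, give only rough differences.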
